A study of Mus musculus with 20 samples.

Results

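Interferons and many blood cytokines act through receptors without enzyme activity of their own. Ligand binding brings together receptor chains that carry Janus kinases, and these phosphorylate STAT proteins (signal transducers and activators of transcription), which pair, enter the nucleus and switch on target genes. Type I interferons bind the chains IFNAR1 and IFNAR2 and act through a complex that holds STAT2 and IRF9, and interferon gamma binds IFNGR1 and IFNGR2. In blood progenitors STAT5A and STAT5B carry signals of interleukin 3, erythropoietin and thrombopoietin, STAT3 those of granulocyte colony-stimulating factor and the interleukin 6 family, STAT6 those of interleukins 4 and 13, and STAT4 those of interleukin 12. Described here are 9 genes of this machinery, taken by name from the 2 families: the receptor chains Ifnar1, Ifnar2 and Ifngr1 and the factors Stat2, Stat3, Stat4, Stat5a, Stat5b and Stat6. Each was found once among the 53379 gene identifiers of the tables, and all 9 were among the 15835 genes with enough reads to test.

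RNA was sequenced from blood progenitor cells negative for mature lineage markers, infected with a murine stem cell virus (MSCV) retroviral vector and cultured for 3 days, in 5 groups of 4 libraries. The transcription factor GATA2 binds DNA through zinc fingers and is needed by early blood cells, and 4 of the groups lacked the -77 enhancer of its gene, a distal upstream element (enhancer-null cells). These 4 groups received a vector with GATA2 carrying the substitution R307W, with GATA2 carrying T354M, with Gata2 without a substitution (the GATA2 group), or a control vector (the enhancer-null control). The fifth group was wild-type cells with the control vector. For the last 3 of these groups, 12 libraries in all, the labels give fetal liver at E14.5, the C57BL/6J strain and growth with interleukin 3 and stem cell factor. For R307W and T354M the labels give no tissue, age, strain or medium, so handling and variant cannot be told apart where these libraries are set against the others. The labels do not say whether infected cells were selected before RNA was taken, or whether replicates came from separate embryos, and p-values then measure only the spread between these libraries.

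Library totals ran from 22330475 to 33245876 expected counts. Gata2, the check of the labels, averaged 54.8 ± 23.7 CPM (expected counts scaled to library size) in the R307W group, 52.0 ± 19.7 in the T354M group, 80.7 ± 37.3 in the GATA2 group, 5.79 ± 1.3 in the enhancer-null control and 44.3 ± 9.80 in wild-type cells (SD, n = 4 each here and below), and its counts cannot separate reads of the vector from those of the gene. CPM values are scaled by TMM, which corrects for a few abundant RNAs. The 6 progenitor markers, Kit, Cd34 and Gata2 itself among them, summed to 690 to 771 CPM in the enhancer-null control and 489 to 530 CPM in wild-type cells. All 10 monocyte and macrophage markers were detected in every group, at sums of 552 to 1200, 385 to 1260, 616 to 1290, 1770 to 1850 and 350 to 532 CPM in the R307W, T354M, GATA2, enhancer-null control and wild-type libraries. The sums of the 10 dendritic cell markers ran from 75.1 to 186, 81.9 to 200, 91.9 to 219, 276 to 445 and 55.2 to 63.4 CPM in the same order. The 12 markers of T, NK and B cells summed to at most 23.0 CPM in any library. In bulk RNA, more cells of a type and more RNA per cell cannot be told apart, and this holds for every gene below.

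The promoters of the 3 genes that were called and differed by at least 2-fold (18.8% of all genes tested did) between the enhancer-null control and wild-type cells are shown, since these are the genes on which the results turn. They are RefSeq sequence of GRCm38.p6, plus strand, from 250 bases before to 20 bases after the annotated start: Ifnar1 at chr16:91484965-91485234, Ifnar2 at chr16:91372533-91372802 and Stat2 at chr10:128270248-128270517. For Ifnar1 and Stat2 this start lies upstream of the gene start given below, and the printed stretch ends before that gene start. Distances of matches are counted from the start used here. Capitals mark the letters TTCNNNGAA, the core that STAT dimers read (the GAS motif), in Ifnar1 and Ifnar2, and the minus-strand match to GAAA, any 2 bases and GAAA again, the core read by the complex with STAT2 and IRF9 (the ISRE motif), in Stat2.
Ifnar1: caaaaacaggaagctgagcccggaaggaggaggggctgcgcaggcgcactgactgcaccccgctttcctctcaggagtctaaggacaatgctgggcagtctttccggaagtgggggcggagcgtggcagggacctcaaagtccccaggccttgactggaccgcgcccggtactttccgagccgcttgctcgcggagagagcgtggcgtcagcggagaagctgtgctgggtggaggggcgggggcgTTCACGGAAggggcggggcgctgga
Ifnar2: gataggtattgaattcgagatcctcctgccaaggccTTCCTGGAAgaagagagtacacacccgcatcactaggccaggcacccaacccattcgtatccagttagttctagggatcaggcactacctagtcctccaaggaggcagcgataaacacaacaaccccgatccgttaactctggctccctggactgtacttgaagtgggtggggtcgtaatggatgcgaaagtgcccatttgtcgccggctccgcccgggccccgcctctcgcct
Stat2: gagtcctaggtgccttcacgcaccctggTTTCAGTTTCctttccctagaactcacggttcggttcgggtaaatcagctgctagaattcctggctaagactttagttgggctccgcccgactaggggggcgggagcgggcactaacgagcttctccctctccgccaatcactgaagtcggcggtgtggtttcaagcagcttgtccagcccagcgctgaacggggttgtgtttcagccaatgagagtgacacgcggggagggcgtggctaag
Both strands of the 300-base promoters (250 before to 50 after the start) of all 9 genes were searched. The GAS letters were found 5 bases before the start of Ifnar1 and 214 bases before that of Ifnar2, counted to the first base of the match, and 8.3% of 32851 mouse promoters hold such a match. The ISRE letters were found 222 bases before the start of Stat2 and 97 bases before a second annotated start of Stat4, against 3.44% of promoters. The letters AGATAA and TGATAA, 2 forms of the GATA motif, stand in 11.2% and 9.05% of promoters and in none of those of the 9 genes. A match describes letters in a window and is not a binding site.

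Loss of the enhancer was accompanied by higher levels of all 3 receptor chains. Ifnar2 (chromosome 16, 91372783 to 91405589 in GRCm38) had 148, 148, 146 and 151 CPM in the enhancer-null control libraries, against 44.0, 51.7, 50.2 and 49.2 CPM in wild-type libraries. The groups lay far apart, and the spread within each was a few CPM. The log2 difference was 1.60 ± 0.23 (SE), a 3.03-fold rise (adjusted p = 1.48e-05, edgeR quasi-likelihood F test with Benjamini-Hochberg adjustment over all genes, as for every adjusted p below). Ifnar1, its neighbour and partner chain (chromosome 16, 91485238 to 91507441), had 129, 126, 130 and 133 CPM in the enhancer-null control, against 54.7, 59.3, 49.1 and 53.3 CPM in wild-type cells. These groups were as clearly apart, and the rise was 2.39-fold (log2 1.26 ± 0.16, adjusted p = 4.94e-06). Ifngr1, the ligand-binding chain of the interferon gamma receptor (chromosome 10, 19591949 to 19610229), had 180, 195, 170 and 177 CPM in the enhancer-null control, against 110, 145, 115 and 102 CPM in wild-type cells. All 4 control libraries of the enhancer-null cells were above all 4 wild-type ones, and the rise was smaller, 1.53-fold (log2 0.61 ± 0.13, adjusted p = 0.000816).

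**Figure D1:**
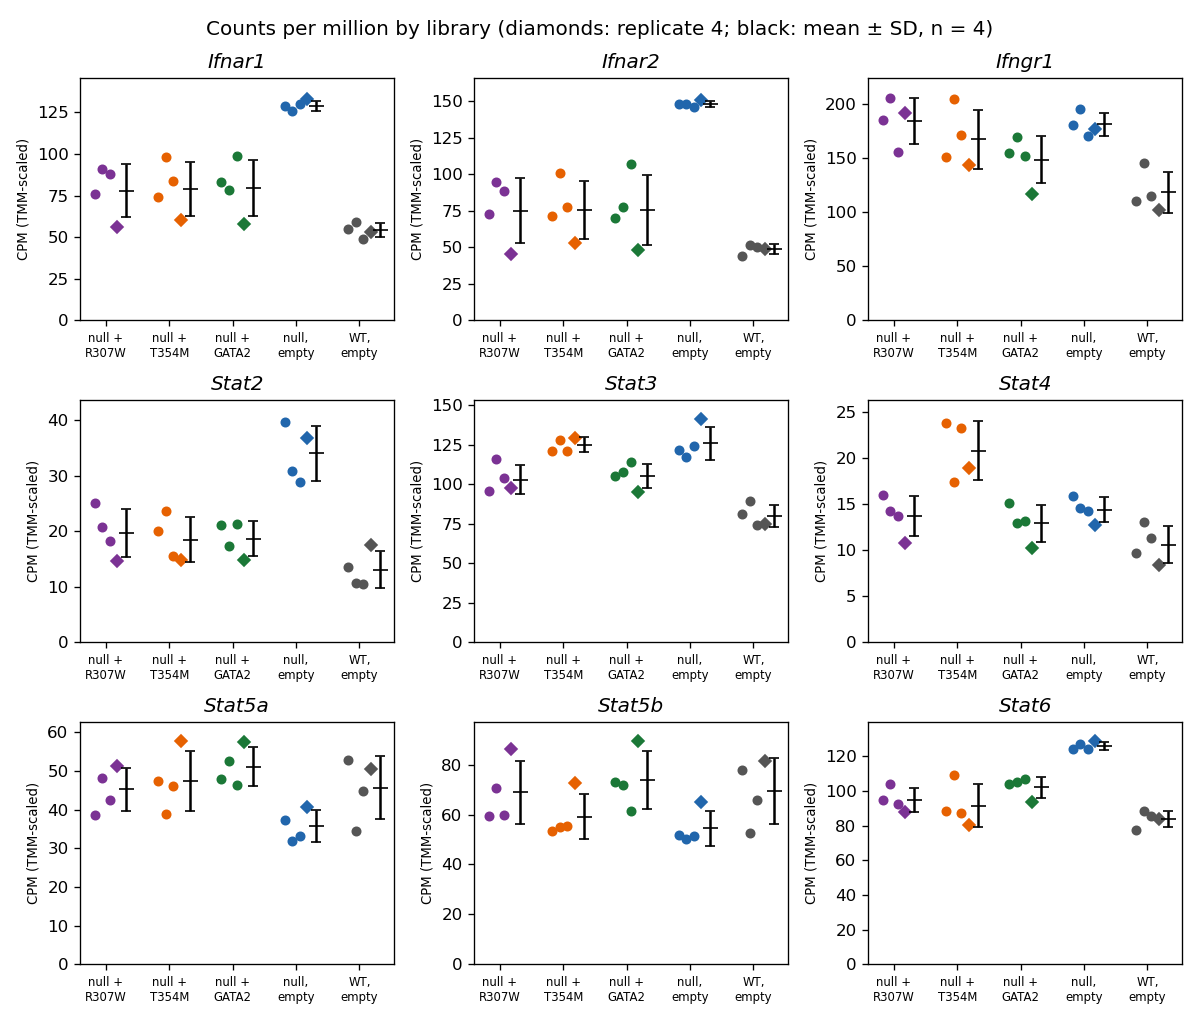
CPM (TMM-scaled, linear axis from 0) of the 9 genes in every library, by group, with black bars for mean ± SD (n = 4). Ifnar1, Ifnar2 and Stat2 were highest in the enhancer-null control in every library, Stat4 was highest in the T354M group, and diamonds mark replicate 4, the lowest for Ifnar1 and Ifnar2 in each vector group with GATA2.

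Among the factors, Stat2 had the largest difference. Stat2 (chromosome 10, 128270559 to 128292849), which acts almost only in the type I interferon pathway, had 39.6, 30.8, 28.8 and 36.7 CPM in the enhancer-null control, against 13.6, 10.7, 10.5 and 17.5 CPM in wild-type cells. No library of one group reached the other, and Stat2 rose 2.60-fold (log2 1.38 ± 0.20, adjusted p = 1.69e-05). Stat3 (chromosome 11, 100885098 to 100939540) had 122, 117, 124 and 141 CPM in the enhancer-null control, against 81.1, 89.5, 74.4 and 74.8 CPM in wild-type cells. Stat6 (chromosome 10, 127642986 to 127660957) had 124, 127, 124 and 129 CPM in the enhancer-null control, against 77.6, 88.2, 85.3 and 83.9 CPM in wild-type cells. Both sets of libraries were apart, and the rises were close in size, 1.57-fold for Stat3 (log2 0.65 ± 0.08, adjusted p = 3.35e-06) and 1.5-fold for Stat6 (log2 0.59 ± 0.08, adjusted p = 1.2e-05). Stat4 (chromosome 1, 51987148 to 52107189) rose by 0.44 ± 0.16 on the log2 scale, with 14.4 ± 1.33 CPM in the enhancer-null control and 10.6 ± 2.03 CPM in wild-type cells and overlapping libraries (adjusted p = 0.0299). That call was lost in 4 of 20 fits that left out 1 library (enhancer-null control replicates 1 and 2, wild-type replicates 1 and 4, adjusted p 0.0553 to 0.0816), and with limma on log2(TPM + 1) (0.0747).

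Stat5a and Stat5b averaged less in the enhancer-null control than in wild-type cells. They lie side by side on chromosome 11 (Stat5a at 100859351 to 100885169, Stat5b at 100780731 to 100850724) and are near-identical copies, so reads could be split between them and each is uncertain alone. Stat5a averaged 35.8 ± 4.05 CPM in the enhancer-null control and 45.7 ± 8.22 CPM in wild-type cells, with overlapping libraries. It fell by 0.35 ± 0.14 on the log2 scale (adjusted p = 0.0456), and 15 of the 20 fits without 1 library did not call it (adjusted p 0.0529 to 0.161). It was not called either with DESeq2 size factors, no filter, only the 8 libraries compared or limma on log2(TPM + 1) (0.0516 to 0.124). Stat5b averaged 54.5 ± 6.92 CPM in the enhancer-null control and 69.4 ± 13.1 CPM in wild-type cells, a log2 difference of -0.35 ± 0.15 that did not pass the test (adjusted p = 0.076). The summed counts of both genes differed by -0.35 ± 0.14 on the log2 scale, just outside the threshold (adjusted p = 0.0558).

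In all, 7 of the 9 genes were higher and 1 was lower in the enhancer-null control than in wild-type cells, where 20.1% of all genes tested were called higher and 23.2% lower. The median log2 difference of the 9 was 0.61, beside -0.05 over all genes tested. The monocyte and macrophage markers moved with this result, 9 of 10 higher in the enhancer-null control than in wild-type cells at a median log2 difference of 2.17, as did 8 of the 9 dendritic cell markers that could be tested. Markers of several other lineages moved the other way. Of the neutrophil markers, 5 of 10 were lower in the enhancer-null control and 1 was higher. All 12 erythroid, all 10 mast cell and basophil, all 7 eosinophil and all 8 megakaryocyte markers were lower there. The sums of these lists did not overlap. Those of the erythroid markers were 621 to 1210 CPM in the enhancer-null control and 4650 to 7730 CPM in wild-type cells. In the same order, they were 37.5 to 49.2 and 669 to 935 CPM for mast cells and basophils and 7.71 to 13.8 and 621 to 1000 CPM for eosinophils. They were 103 to 315 and 386 to 634 CPM for megakaryocytes and 4120 to 5500 and 8350 to 17800 CPM for neutrophils. Other sums were higher in the control, again without overlap. For T, NK and B cell markers they were 17.1 to 23.0 CPM there and 5.84 to 7.95 CPM in wild-type cells. For endothelial and stromal markers they were 74.9 to 98.3 and 63.4 to 74.0 CPM, and for progenitor markers 690 to 771 and 489 to 530 CPM. The part of these markers in the receptor and STAT levels was not tested. Bst2 is in both the dendritic list and the list of type I interferon targets below. Without the fourth library of every group the difference of Ifnar1 was 1.24 ± 0.12, that of Ifnar2 1.59 ± 0.16 and that of Stat2 1.51 ± 0.18 on the log2 scale.

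Each of the 3 GATA2 proteins was accompanied by lower Ifnar1, Ifnar2 and Stat2 in enhancer-null cells, to much the same level. Ifnar2 had 72.7, 94.7, 88.4 and 45.2 CPM in the R307W libraries, 71.4, 101, 77.8 and 52.7 CPM in the T354M libraries and 69.8, 77.9, 107 and 48.2 CPM in the GATA2 libraries, beside the 146 to 151 CPM of the enhancer-null control. Every library with a GATA2 vector was below every control library, and the spread within each vector group (SD 22, 19.8 and 24.1 CPM) was far wider than the 2.19 CPM of the control. Ifnar2 fell by 0.98 ± 0.22 with R307W, 0.97 ± 0.22 with T354M and 0.97 ± 0.22 with GATA2 on the log2 scale against the enhancer-null control (adjusted p = 0.00592, 0.00595 and 0.00529). Ifnar1 had 76.1, 91.0, 88.2 and 56.3 CPM with R307W, 74.0, 98.3, 83.5 and 60.3 CPM with T354M and 83.1, 78.6, 98.5 and 58.2 CPM with GATA2, all below the 126 to 133 CPM of the enhancer-null control. It fell by 0.73 ± 0.16, 0.71 ± 0.16 and 0.70 ± 0.16 on the log2 scale with R307W, T354M and GATA2 (adjusted p = 0.00438, 0.00503 and 0.00497). Stat2 had 25.1, 20.8, 18.2 and 14.7 CPM with R307W, 20.1, 23.6, 15.5 and 14.9 CPM with T354M and 21.2, 17.3, 21.3 and 14.9 CPM with GATA2, again all below the 28.8 to 39.6 CPM of the enhancer-null control. Its log2 difference from that control was -0.79 ± 0.19 with R307W, -0.87 ± 0.19 with T354M and -0.86 ± 0.19 with GATA2 (adjusted p = 0.00949, 0.00465 and 0.00454). Monocyte and macrophage markers moved with these falls, 8 of 10 lower with R307W, 7 with T354M and 7 with GATA2 than in the control. Of all genes tested, 7.48%, 8.11% and 8.23% were called lower in the same order. The sums of the 7 eosinophil markers moved the other way, at 1240 to 3140, 1010 to 5630 and 1800 to 3170 CPM with R307W, T354M and GATA2. So did those of the 10 mast cell and basophil markers, at 507 to 1060, 422 to 1510 and 1320 to 4350 CPM, all above the sums of the control given before. The part of these markers in the falls was not tested.

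These 3 genes stayed above wild-type levels in part. Ifnar1 averaged 77.9 ± 15.8, 79.0 ± 16 and 79.6 ± 16.6 CPM with R307W, T354M and GATA2, against 54.1 ± 4.24 CPM in wild-type cells, and was called higher than wild type in all 3 groups (log2 0.53, 0.55 and 0.56, each ± 0.16). Ifnar2 was called higher than wild type in all 3 groups as well (log2 0.62, 0.63 and 0.63, each ± 0.22), but with R307W the call was lost in 7, with T354M in 4 and with GATA2 in 5 of the 20 fits without 1 library (adjusted p up to 0.11, 0.112 and 0.132). The libraries whose absence did so were wild-type replicates 1 to 4 and R307W replicates 1 to 3, wild-type replicates 1 and 4 and T354M replicates 2 and 3, and wild-type replicates 1, 3 and 4 and GATA2 replicates 2 and 3. In each group the fourth library was within or near the wild-type range, and without the fourth libraries the log2 differences of Ifnar2 from wild type were 0.81 ± 0.16, 0.77 ± 0.16 and 0.80 ± 0.16. Stat2 was called higher than wild type with R307W (log2 0.59 ± 0.20, adjusted p = 0.0266), while with T354M and GATA2 it missed the threshold (log2 0.50 ± 0.20 and 0.51 ± 0.20, adjusted p = 0.0518 and 0.0539). Without the fourth libraries Stat2 was higher than wild type in all 3 groups (log2 0.88, 0.77 and 0.78, each ± 0.18), and leaving out R307W replicate 1 or wild-type replicate 2 or 3, or fitting only the 8 libraries compared, ended the R307W call (adjusted p 0.0701 to 0.0965). Stat2 with T354M and with GATA2 was called higher than wild type with no filter on low counts (adjusted p = 0.0313 and 0.0298). It was also called by the DESeq2 Wald test (0.0438 and 0.0363) and by limma on log2(TPM + 1) (0.0112 and 0.0499). Of the 20 fits without 1 library, 11 called it with T354M and 9 with GATA2 (adjusted p up to 0.15 and 0.121 in the others). Limma on log2(TPM + 1) ended the call of Ifnar2 with GATA2 (0.0643).

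**Figure D2:**
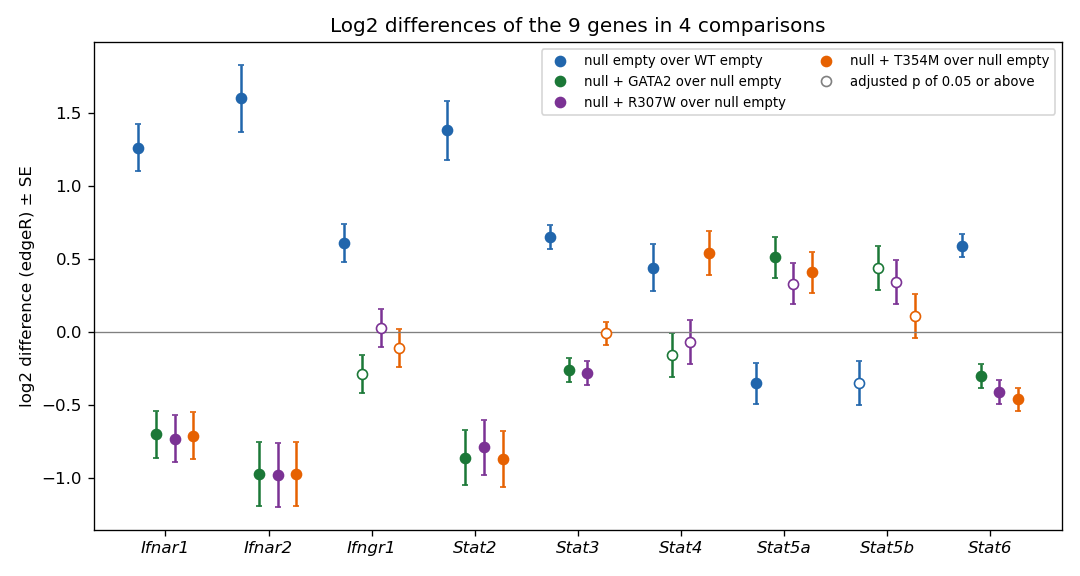
Log2 differences ± SE (edgeR) of the 9 genes in 4 comparisons, with open circles for an adjusted p of 0.05 or above. The 3 vectors lie together for Ifnar1, Ifnar2 and Stat2, while T354M has the highest value of the 3 for Stat3 and Stat4.

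The interferon gamma chain was called with none of the vectors against the enhancer-null control. Ifngr1 had 185, 205, 155 and 191 CPM with R307W, 151, 204, 171 and 143 CPM with T354M and 154, 169, 152 and 117 CPM with GATA2, beside 170 to 195 CPM in the enhancer-null control. The R307W and T354M libraries overlapped the control, while each GATA2 library was below every control library. Against the enhancer-null control the log2 differences were 0.03 ± 0.13 with R307W (2 SE either side, -0.23 to 0.29), -0.11 ± 0.13 with T354M (-0.37 to 0.15) and -0.29 ± 0.13 with GATA2, none past the threshold (adjusted p = 0.915, 0.622 and 0.132). With the replicate number as a block over the 16 enhancer-null libraries the difference with GATA2 was -0.31 ± 0.09 (adjusted p = 0.0224). Against wild-type cells Ifngr1 was higher with R307W (log2 0.64 ± 0.13) and with T354M (0.50 ± 0.13), and the difference with GATA2 was 0.33 ± 0.13 (adjusted p = 0.0654, and 0.0398 with no filter on low counts).

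Stat6 was lower than in the enhancer-null control with all 3 vectors, and Stat3 with R307W and GATA2. Stat6 had 94.9, 104, 92.6 and 87.6 CPM with R307W, 88.5, 109, 87.1 and 80.6 CPM with T354M and 104, 105, 107 and 93.8 CPM with GATA2, all below the 124 to 129 CPM of the enhancer-null control. It fell by 0.41 ± 0.08 with R307W, 0.46 ± 0.08 with T354M and 0.30 ± 0.08 with GATA2 on the log2 scale (adjusted p = 0.0021, 0.000733 and 0.0159), and the last call was lost without GATA2 replicate 4 (adjusted p = 0.0731), without the fourth libraries (0.0851), with no filter on low counts (0.0775) and with limma on log2(TPM + 1) (0.0731). Stat3 had 95.8, 116, 104 and 97.8 CPM with R307W, 121, 128, 121 and 129 CPM with T354M and 105, 108, 114 and 95.2 CPM with GATA2, beside 117 to 141 CPM in the enhancer-null control. The R307W and GATA2 libraries were below every control library, and the T354M libraries lay within the control's range. Stat3 fell by 0.28 ± 0.08 with R307W (adjusted p = 0.022) and 0.26 ± 0.08 with GATA2 (adjusted p = 0.0331), and its log2 difference with T354M was -0.01 ± 0.08 (-0.17 to 0.15). Neither fall of Stat3 was called without the fourth libraries (adjusted p = 0.164 with R307W and 0.303 with GATA2), with no filter (0.102 and 0.174) or with limma on log2(TPM + 1). With limma the differences were -0.16 ± 0.13 and -0.23 ± 0.13 (0.481 and 0.302). One library decided them too, as the GATA2 call was also lost without any of enhancer-null control replicates 1, 3 and 4 or GATA2 replicates 1, 2 and 4 (0.0519 to 0.136), the R307W call without control replicate 4 or R307W replicates 1 and 4 (0.072 to 0.0882). Every T354M library was above every R307W and every GATA2 library for Stat3, but the direct differences of T354M over GATA2 (log2 0.24 ± 0.08, adjusted p = 0.0654) and of R307W over T354M (-0.27 ± 0.08, adjusted p = 0.0797) missed the threshold.

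Stat4 was highest with T354M. It had 16, 14.2, 13.7 and 10.8 CPM with R307W, 23.8, 17.4, 23.3 and 18.9 CPM with T354M, 15.1, 13.0, 13.2 and 10.2 CPM with GATA2, 15.9, 14.6, 14.2 and 12.7 CPM in the enhancer-null control and 9.74, 13.1, 11.3 and 8.41 CPM in wild-type cells. The 4 T354M libraries were above every library of the other 4 groups. Stat4 rose with T354M over the enhancer-null control by 0.54 ± 0.15 on the log2 scale (adjusted p = 0.0226), over GATA2 by 0.69 ± 0.15 (adjusted p = 0.00571) and over wild-type cells by 0.97 ± 0.16 (adjusted p = 6.69e-05), and R307W was lower than T354M by -0.61 ± 0.15 (adjusted p = 0.0317). The T354M over GATA2 call held in all 20 fits without 1 library, the R307W against T354M call was lost in 5 of them (R307W replicates 2, 3 and 4, T354M replicates 1 and 3), and the T354M over enhancer-null control call in 4 (control replicates 3 and 4, T354M replicates 1 and 3). With limma on log2(TPM + 1) none of these 3 calls between enhancer-null groups held, at 0.45 ± 0.19 for T354M over the control (adjusted p = 0.13), 0.59 ± 0.19 for T354M over GATA2 (adjusted p = 0.0685) and -0.50 ± 0.19 for R307W over T354M (adjusted p = 0.273). STAT4 is best known from T and NK cells, whose 12 markers had a median sum of 13.6 CPM with T354M and 13.5 CPM with GATA2, with Ncr1 at 0 in the T354M group and Cd8a at 0 in the GATA2 group. Progenitor and neutrophil markers were also higher with T354M than in the other enhancer-null groups. The 6 progenitor markers summed to 923 to 1080 CPM with T354M, above the 820 to 898 CPM with R307W, 758 to 825 CPM with GATA2, 690 to 771 CPM in the enhancer-null control and 489 to 530 CPM in wild-type cells. The 10 neutrophil markers summed to 7230 to 9260 CPM with T354M, above the 4460 to 6670 CPM with R307W, 3050 to 4350 CPM with GATA2 and 4120 to 5500 CPM in the enhancer-null control. Wild-type cells had 8350 to 17800 CPM of neutrophil markers and the lowest mean Stat4. Their part in the Stat4 level was not tested.

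Stat5a was called higher with GATA2 and with T354M than in the enhancer-null control. It had 38.6, 48.1, 42.6 and 51.4 CPM with R307W, 47.4, 38.9, 46.0 and 57.7 CPM with T354M and 48.0, 52.5, 46.3 and 57.4 CPM with GATA2, against 37.4, 31.9, 33.2 and 40.8 CPM in the enhancer-null control. Only the GATA2 libraries did not overlap the control. Stat5a rose by 0.51 ± 0.14 on the log2 scale with GATA2 (adjusted p = 0.0143, lost at 0.0613 without GATA2 replicate 4) and by 0.41 ± 0.14 with T354M (adjusted p = 0.0481, lost in 13 of 20 fits without 1 library, and at 0.0517 to 0.0643 with DESeq2 size factors, no filter or only the 8 libraries compared), and the difference with R307W was 0.33 ± 0.14 (adjusted p = 0.1). Stat5b averaged 68.9 ± 12.7 CPM with R307W, 59.1 ± 8.97 CPM with T354M and 73.9 ± 11.5 CPM with GATA2, against 54.5 ± 6.92 CPM in the enhancer-null control, and passed the test in no comparison. With the replicate block over the 16 enhancer-null libraries Stat5b was higher with GATA2 than in the control (log2 0.42 ± 0.06, adjusted p = 0.000321). It was lower with T354M than with GATA2 (-0.35 ± 0.06, adjusted p = 0.00166) and higher with R307W than with T354M (0.23 ± 0.06, adjusted p = 0.0361). The same fit called Stat5b and Stat5a higher with R307W than in the control (0.31 ± 0.06 and 0.31 ± 0.09, adjusted p = 0.00273 and 0.0146). Between R307W and the control, deviations of libraries with the same replicate number correlated at 0.02 to 0.31. The summed counts of both genes were higher with GATA2 than in the control by 0.47 ± 0.14 on the log2 scale (adjusted p = 0.0285). With T354M the sum differed from the control by 0.24 ± 0.14 and was not called (adjusted p = 0.28). Without the fourth libraries Stat5a with T354M was not called either (log2 0.37 ± 0.14, adjusted p = 0.114).

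Counted over the 9 genes, none was higher and 5 were lower with R307W than in the enhancer-null control (10% of all genes tested were called higher and 7.48% lower), 2 were higher and 4 lower with T354M (9.26% higher and 8.11% lower), and 1 was higher and 5 were lower with GATA2 (11% higher and 8.23% lower). Their median log2 differences were -0.28, -0.11 and -0.29, beside 0.02, 0.02 and 0.00 over all genes tested. Against wild-type cells 5 were higher with R307W (16.5% of all genes were called higher and 17% lower), 5 with T354M (18.6% and 18.4%) and 4 with GATA2 (14.7% and 16%), and none was lower. These comparisons share the control libraries and are given side by side. Without GATA2 replicate 4 the number called in GATA2 against the enhancer-null control was 3, and without R307W replicate 1 or wild-type replicate 3 the number called in R307W against wild-type cells was 3.

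Between the vectors, R307W against GATA2 gave no call among the 9 genes by edgeR or by DESeq2, and 1 at an unadjusted p under 0.05, with 0.587% of all genes called higher and 1.14% lower. That gene was Ifngr1, with 184 ± 21.3 CPM with R307W and 148 ± 21.7 CPM with GATA2 (log2 0.31 ± 0.13). For Ifnar1 and Ifnar2 the log2 differences of R307W from GATA2 were -0.03 (-0.35 to 0.29) and -0.01 (-0.45 to 0.44), with 2 SE either side in parentheses, which leaves room for a difference either way. T354M against GATA2 gave 1 call, Stat4 higher with T354M (3.86% of all genes were called higher and 6.14% lower), and R307W against T354M gave 1, Stat4 lower with R307W (2.3% higher and 1.19% lower). For Ifnar1 and Ifnar2 T354M differed from GATA2 by -0.01 (-0.33 to 0.31) and 0.00 (-0.44 to 0.44) on the log2 scale.

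The order of the 5 groups differed from gene to gene. For Ifnar1 and Ifnar2 the enhancer-null control stood first, the 3 vector groups followed at levels that did not differ beyond their spread, and wild-type cells came last, apart from all 3. Stat2 and Stat6 had the control first as well, and their lowest neighbours, T354M and wild-type cells, were not called different (adjusted p = 0.0518 and 0.248). Stat3 ran from the control and T354M at 126 ± 10.4 and 125 ± 4.79 CPM through GATA2 at 105 ± 7.63 and R307W at 103 ± 9.08 to wild-type cells at 80.0 ± 7.05 CPM, where only R307W and wild-type cells differed as neighbours. Ifngr1 was highest with R307W at 184 ± 21.3 CPM and lowest in wild-type cells at 118 ± 18.7 CPM, with no pair of neighbours apart. For Stat5a and Stat5b the enhancer-null control stood last, and no neighbours were called different. For Stat4 the T354M group stood first, apart from the enhancer-null control behind it, and no later neighbours were called different. Compared between genes on the TPM scale, which allows for length, Ifngr1 was the most abundant of the 9 with 91.1 ± 8.63 TPM in the enhancer-null control and 57.3 ± 9.63 TPM in wild-type cells. Ifnar2 was next with 71.9 ± 3.48 TPM in the control and 24.4 ± 2.65 TPM in wild-type cells. The lowest level in the control was that of Stat4, 7.63 ± 1.18 TPM, and the lowest in wild-type cells that of Stat2, 3.95 ± 0.999 TPM.

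The spread within the vector groups had an order of its own. In each of these 3 groups replicate 4 had the most Gata2, 89.5 CPM with R307W, 73.8 CPM with T354M and 132 CPM with GATA2, and the least Ifnar1, Ifnar2, Stat2 and Stat6 of its group. Replicate 4 also had the most Stat5a and Stat5b in all 3 groups. At the other end, the T354M library with the least Gata2 (33.6 CPM) had the most Ifnar1 and Ifnar2 (98.3 and 101 CPM), and so had the GATA2 library with the least (42.9 CPM, with 98.5 and 107 CPM). With R307W the library with the least Gata2, 39.5 CPM, was second highest for both chains. Other measures moved with replicate 4. Its monocyte and macrophage markers summed to 552, 385 and 616 CPM with R307W, T354M and GATA2, against 972 to 1200, 721 to 1260 and 940 to 1290 CPM in the other libraries of those groups, and its mast cell and basophil markers to 1060, 1510 and 4350 CPM, against 507 to 623, 422 to 1020 and 1320 to 2760 CPM. Its hepatocyte markers summed to 171 CPM with R307W and 359 CPM with T354M, against 579 to 1270 and 575 to 1680 CPM in the other libraries, and with GATA2 to less than the 726 to 1530 CPM of the others. Their part in the levels of the 9 genes was not tested. In the enhancer-null control, where Gata2 was at most 7.67 CPM, replicate 4 was not the lowest for Ifnar1, Ifnar2, Stat2 or Stat6. It had the most Stat5a (40.8 CPM, against 31.9 to 37.4 CPM in the other control libraries) and the most Stat5b (64.9 CPM, against 50.2 to 51.6 CPM). Replicate 4 of the wild-type cells had the most Stat5b of its group as well (81.4 CPM, against 52.6 to 78.0 CPM).

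**Figure D3:**
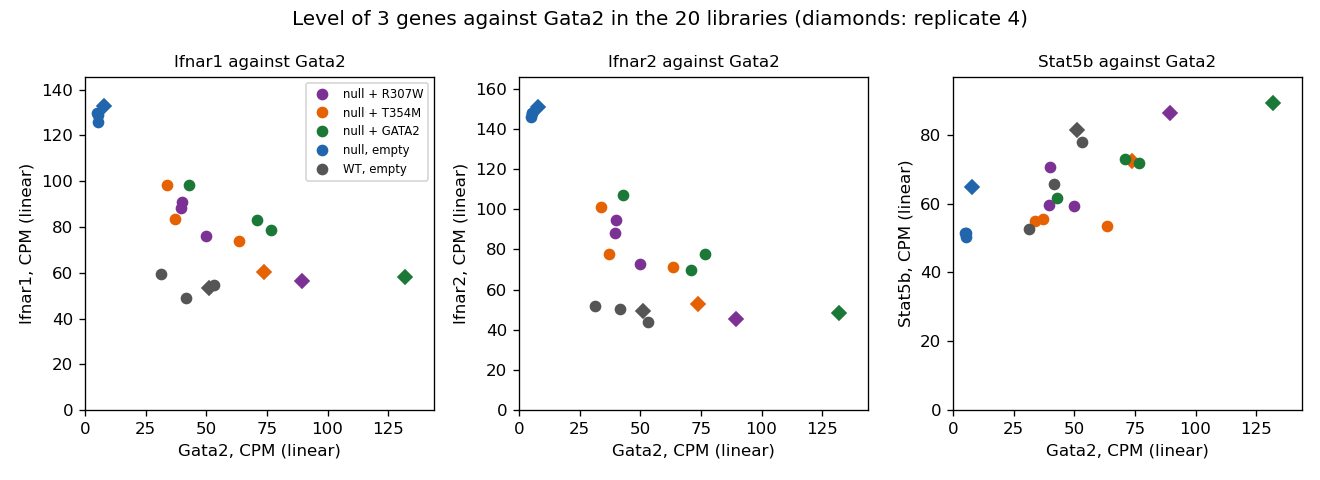
Level of Ifnar1, Ifnar2 and Stat5b against Gata2 in the 20 libraries (CPM on linear axes, diamonds for replicate 4). Within each vector group Ifnar1 and Ifnar2 were lowest, and Stat5b highest, in the library with the most Gata2, and wild-type libraries had less Ifnar1 than vector libraries of similar Gata2.

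The genes whose log2 CPM over the 20 libraries was most like that of each of the 9 were taken from 9344 genes with a mean of at least 5 CPM. For Ifnar1 they were Lsp1, Ifngr2 and Irf5 (Pearson r = 0.99 each), and for Ifnar2 Lsp1 and Ifnar1 (0.99 each) and Irf8 (0.98). For Stat2 they were Helz2 and Bmf (0.94 each) and Sfxn5 (0.93), for Stat3 Vav1 (0.96), for Stat6 Naaa (0.97), for Ifngr1 Ugt1a7c (0.91) and for Stat4 Smad5 (0.91). Stat5a was most like Wdr6 and Stat5b most like Nop53 (0.93 each). These r values describe libraries that share 5 group means, and carry no p.

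Of 4 partner genes of the 9, 3 were higher in the enhancer-null control than in wild-type cells and 1 was lower. Over all genes tested 20.1% were called higher and 23.2% lower, and 1 of 4 lower is near that share. Ifngr2, the second chain of the interferon gamma receptor, had 63.6, 65.8, 60.8 and 66.8 CPM in the enhancer-null control, against 24.1, 28.2, 18.5 and 20.2 CPM in wild-type cells, groups that did not overlap. It rose by 1.5 ± 0.19 on the log2 scale (adjusted p = 4.59e-06). Irf9, the DNA-binding partner of STAT2, averaged 63.4 ± 4.45 CPM in the enhancer-null control and 38.2 ± 8.18 CPM in wild-type cells, a rise of 0.73 ± 0.16 (adjusted p = 0.00119). Ifnlr1, the specific chain of the interferon lambda receptor, was the one that fell, by 1.89 ± 0.42, with 0.919 ± 0.217 CPM in the control and 3.41 ± 1.17 CPM in wild-type cells. With each of R307W, T354M and GATA2, 3 of the 4 partners were lower than in the control and none was higher. In the same order, 7.48%, 8.11% and 8.23% of all genes tested were called lower. Irf9 had 47.8, 44.5, 41.7 and 32.8 CPM with R307W, 29.6, 36.9, 31.2 and 22.3 CPM with T354M and 40.7, 47.6, 45.5 and 32.5 CPM with GATA2, all below the 59.2 to 69.4 CPM of the control libraries. Its log2 difference from the control was -0.61 ± 0.16 with R307W, -1.08 ± 0.16 with T354M and -0.61 ± 0.16 with GATA2 (adjusted p = 0.0157, 0.000177 and 0.0136).

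Of the 4 Janus kinases, 2 were higher in the enhancer-null control than in wild-type cells and 1 was lower. Over all genes tested 20.1% were called higher and 23.2% lower, and 1 of 4 lower is near that share. Tyk2, which is bound to IFNAR1, averaged 66.7 ± 4.96 CPM in the enhancer-null control and 41.9 ± 5.22 CPM in wild-type cells (log2 0.67 ± 0.09, adjusted p = 1.35e-05), and Jak3, the kinase of the common gamma chain, was higher by 0.84 ± 0.18 (adjusted p = 0.000832). Jak2, the kinase of the receptors for interleukin 3, erythropoietin and thrombopoietin and of IFNGR2, had 216, 169, 163 and 266 CPM with R307W, 127, 114, 106 and 131 CPM with T354M, 268, 238, 196 and 314 CPM with GATA2, 137, 148, 138 and 140 CPM in the enhancer-null control and 164, 218, 227 and 184 CPM in wild-type cells. T354M libraries were all below the control libraries, and R307W and GATA2 libraries all above them. The difference of T354M from the control was not called, though (log2 -0.24 ± 0.15, adjusted p = 0.311). Jak2 fell by 0.49 ± 0.15 on the log2 scale in the enhancer-null control against wild-type cells (adjusted p = 0.013) and rose by 0.85 ± 0.15 with GATA2 against the control (adjusted p = 0.000703). It was lower with T354M than with GATA2 by -1.09 ± 0.15 (adjusted p = 0.000115) and higher with R307W than with T354M by 0.77 ± 0.15 (adjusted p = 0.00589).

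Receptor genes were grouped by the STAT they act through. Of all genes tested, 20.1% were called higher and 23.2% lower in the enhancer-null control than in wild-type cells. With GATA2 against the control these shares were 11% and 8.23%. They were 3.86% and 6.14% for T354M against GATA2, and 0.587% and 1.14% for R307W against GATA2. The 3 of 11 lower in the STAT5 group below were near the share over all genes. Of 8 tested receptor genes upstream of STAT3, 7 were higher in the enhancer-null control than in wild-type cells and none lower, Il10ra, the interleukin 10 receptor, among them (log2 2.44 ± 0.32), and 4 of the 8 were lower with GATA2 than in the control. Of the 11 upstream of STAT5, 4 were higher and 3 lower in the enhancer-null control than in wild-type cells, and with GATA2 7 were higher and 1 lower than in the control. Csf2rb, the common beta chain of the interleukin 3, interleukin 5 and GM-CSF receptors, averaged 620 ± 196 CPM with R307W, 376 ± 68.0 CPM with T354M, 893 ± 244 CPM with GATA2, 368 ± 43.5 CPM in the enhancer-null control and 253 ± 15.5 CPM in wild-type cells. It rose by 1.28 ± 0.20 on the log2 scale with GATA2 against the control (adjusted p = 0.000178), and its level is uncertain, since reads can be split with its near copy Csf2rb2. Of the 11, T354M had 2 higher and 6 lower than GATA2, and R307W had none higher and 2 lower. Il4ra, the interleukin 4 receptor upstream of STAT6, was higher in the enhancer-null control than in wild-type cells by 1.74 ± 0.23 and lower with GATA2 than in the control by -0.90 ± 0.22 (adjusted p = 5.34e-06 and 0.00821). It is 1 of 2 receptor genes listed for STAT6, and both of these and both of the 2 tested for STAT4 were higher in the enhancer-null control than in wild-type cells, while 1 of each pair was lower with GATA2 than in the control.

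Genes known to respond to type I interferon moved with Ifnar1, Ifnar2 and Stat2. Of 23, 22 were higher in the enhancer-null control than in wild-type cells and none was lower, with a median log2 difference of 2.68. Over all genes tested 20.1% were called higher and 23.2% lower in that comparison. Bst2, which tethers budding virus, averaged 39.3 ± 6.02 CPM in the control and 9.11 ± 2.31 CPM in wild-type cells, and Ddx58, the sensor RIG-I, averaged 82.6 ± 11 CPM in the control and 23.4 ± 7.15 CPM in wild-type cells (log2 2.11 ± 0.23 and 1.82 ± 0.22). With R307W 10 of the 23 were lower than in the enhancer-null control, with T354M 19 and with GATA2 17, and none was higher. Without the fourth libraries these counts were 12, 21 and 20. Of all genes tested with all libraries, 7.48%, 8.11% and 8.23% were called lower with R307W, T354M and GATA2 than in the control. The monocyte and dendritic cell markers given above moved the same way, and their part in the response genes was not tested. No gene of the list was called between R307W and T354M or between either and GATA2. Of 17 tested genes of the interferon gamma response, 16 were higher in the enhancer-null control than in wild-type cells, Psmb8, a subunit of the immunoproteasome, among them (log2 2.30 ± 0.13), and 8, 12 and 12 were lower with R307W, T354M and GATA2 than in the control.

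Targets of STAT5 were mixed. Of 11, 5 were higher and 4 lower in the enhancer-null control than in wild-type cells, and with GATA2 4 were higher and 1 was lower than in the control. Osm, a cytokine gene, had 13.5, 14.7, 11.6 and 21.9 CPM with R307W, 6.84, 7.99, 6.45 and 9.60 CPM with T354M, 54.2, 79.0, 34.7 and 82.7 CPM with GATA2, 5.38, 7.25, 8.91 and 7.32 CPM in the enhancer-null control and 23.0, 15.6, 29.7 and 14.9 CPM in wild-type cells. The GATA2 libraries were above all others and the R307W libraries above those of T354M and the control. Osm rose by 3.12 ± 0.29 on the log2 scale with GATA2 against the control (adjusted p = 1.45e-06) and was lower with T354M than with GATA2 by -3.02 ± 0.29 (adjusted p = 2.94e-06). T354M had 5 of the 11 lower than GATA2 and none higher, and R307W had 1 lower. Over all genes tested 6.14% were called lower with T354M than with GATA2, and 1.14% with R307W. Of 8 targets of STAT3, 7 were higher in the enhancer-null control than in wild-type cells and 2 were lower with GATA2 than in the control. Of 9 tested targets of STAT6, 2 were higher and 3 lower in the enhancer-null control than in wild-type cells, and of 3 tested targets of STAT4, 1 was higher and 1 lower. Over all genes tested 20.1% were called higher and 23.2% lower in that comparison. The STAT6 count was near that of any genes. With GATA2, where 11% of all genes were called higher and 8.23% lower than in the control, the STAT6 list had 2 higher and 3 lower than in the control, and the STAT4 list 2 higher and 1 lower.

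Of 20 suppressors of the pathway, 10 were higher and 4 lower in the enhancer-null control than in wild-type cells, beside 20.1% and 23.2% of all genes tested. The share lower was no more than that over all genes. Ptpn6, the phosphatase SHP-1, averaged 246 ± 10.2 CPM in the enhancer-null control and 95.4 ± 16 CPM in wild-type cells (log2 1.37 ± 0.16), and Usp18, which binds IFNAR2 and blocks its signal, averaged 32.1 ± 8.31 CPM in the control and 5.42 ± 1.20 CPM in wild-type cells (log2 2.56 ± 0.42). With GATA2 5 of the 20 were lower than in the control, beside 8.23% of all genes, and 2 were higher, no more than the 11% of all genes. The 2 were Socs2 and Cish, which are induced by STAT5 and restrain it (log2 2.10 ± 0.35 and 2.11 ± 0.41), and both were lower with T354M than with GATA2 (-1.80 ± 0.34 and -1.34 ± 0.40, adjusted p = 0.00162 and 0.0364).

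**Figure D4:**
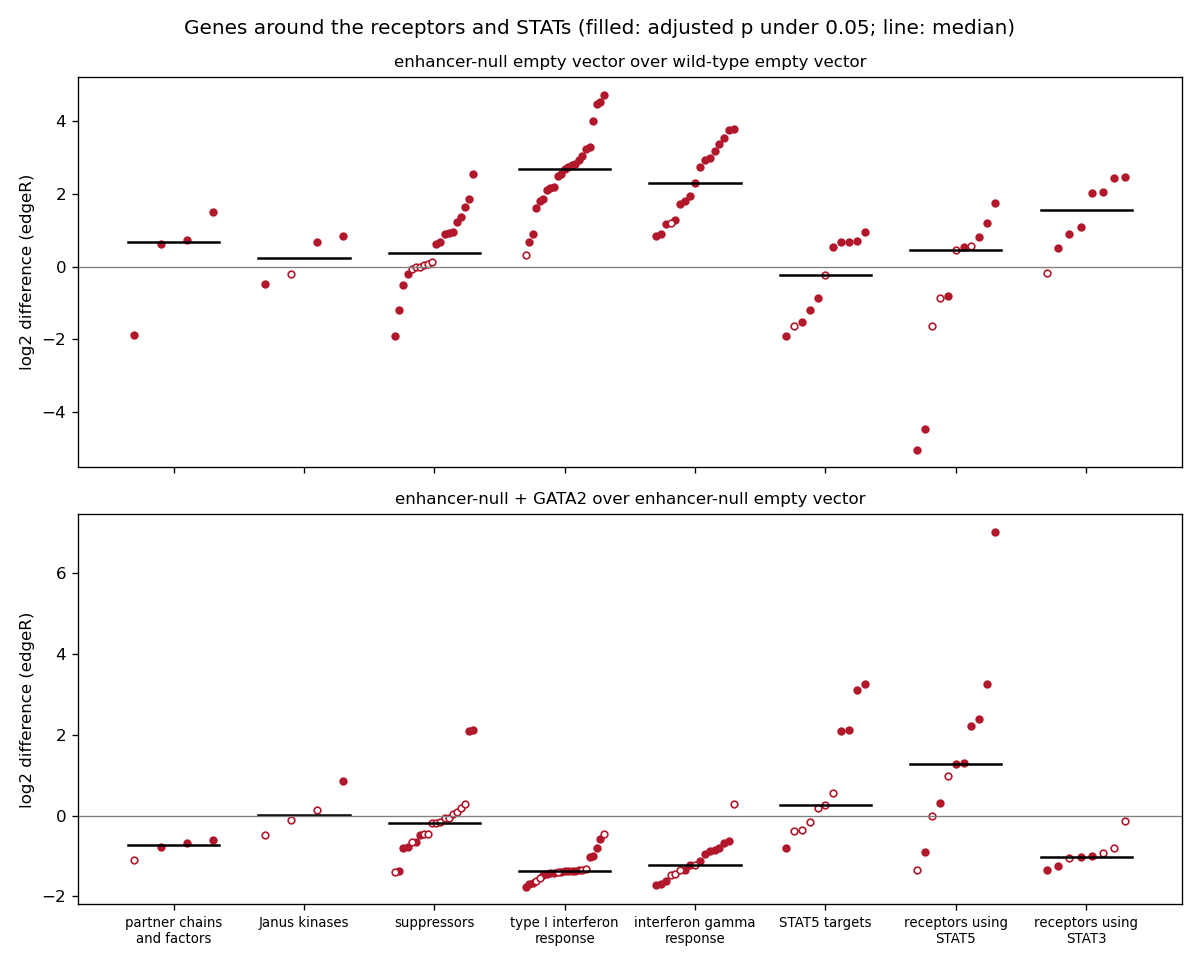
Log2 differences (edgeR) of the tested genes of 8 lists around the receptors and STATs, in the enhancer-null control over wild-type cells (top) and with GATA2 over the enhancer-null control (bottom). Each point is a gene, filled where the adjusted p was under 0.05, and lines mark list medians, which for the type I interferon response were 2.68 and -1.38.

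RNA of the interferons themselves was close to absent in these libraries. None of 21 interferon genes had enough reads to test, and 8 had no reads in any library. Their expected counts summed to 17 with R307W, 21 with T354M, 23 with GATA2, 30 in the enhancer-null control and 28 in wild-type cells. These counts do not tell whether interferon protein was present in the cultures. Where genes overlap, reads can be counted for either: Stat3 and Stat5a share 72 bases on opposite strands and Stat6 shares 40 with Nab2, and the predicted gene Gm21970 overlaps Ifnar2 over 13869 bases on the same strand at a mean of 11.4 expected counts a library, beside 2202 for Ifnar2.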

How the data were processed

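RNA-seq of 20 libraries in 5 groups of 4 was used, grouped by the labels. The authors deposited a gene table per library with RSEM expected counts and TPM (a level per length, scaled to the library). Reads were processed with STAR 2.5.2b and RSEM 1.3.0 on mm10, per the submitters' processing notes, and libraries were made from total RNA with a NuGEN Ovation kit, per the labels' protocols. The strand setting is not given in the sources used here. Symbols came from a GRCm38 annotation table, matched without the version for 53274 of 53379 identifiers.

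Expected counts as deposited were rounded, filtered with filterByExpr (15835 genes), scaled by TMM and fitted with edgeR 4.0.16 (R 4.3.3) in 1 quasi-likelihood model with 5 group means. All 10 pairs of groups were tested, with Benjamini-Hochberg adjustment across the 15835 genes tested in each, and calls were made at an adjusted p under 0.05. A standard error is the log2 difference divided by the square root of F. The steps were tested on simulated data.

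Alternatives were DESeq2 size factors, no filter, a replicate block, only the 8 libraries compared, the DESeq2 1.42.0 Wald test, limma 3.58.1 on log2(TPM + 1) and log2(TPM + 0.1), a fold of at least 2, and fits without 1 library or without the fourth library of each group. Libraries of the same replicate number deviated together (r over 0.1 in all 4 pairs) between R307W and GATA2 (0.22 to 0.62), T354M and GATA2 (0.16 to 0.55), R307W and T354M (0.20 to 0.67), and GATA2 and the enhancer-null control (0.12 to 0.30), a pairing that comes from the data. In each of these comparisons r was highest for replicate 4. T354M replicate 2 was more like a GATA2 library of another number (0.30, against 0.16 with its own). R307W replicate 3 was more like a T354M library of another number (0.34 against 0.20). R307W replicate 2 was as like another GATA2 library as its own (0.22 each). No 2 libraries of a group were duplicates (chi-square per degree of freedom 16.7 to 108).

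The 9 genes, the pathway and marker lists and the tests were chosen with earlier results of these data known, and the lists share genes such as Il4ra, Pim1, Cish and Socs1. From each list the text names genes among the 3 with the lowest adjusted p in a comparison described. R307W and T354M name amino acid substitutions of GATA2. One gene of the pathway is not reported here.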

Additional observations from a re-analysis of the deposited data

Results flagged for a closer look

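In 45 sets of 4 libraries (9 genes in 5 groups), a library was singled out where its gap to the nearest other, divided by the range of the group, was above Dixon's critical value, a limit that chance passes in about 1 of 20 sets. Stat5b in T354M replicate 4 passed it with 0.887, at 72.5 CPM against 53.4 to 55.5 CPM in the other T354M libraries. Stat5b in replicate 4 of the enhancer-null control passed it with 0.904, at 64.9 CPM against 50.2 to 51.6 CPM in the other libraries of that group. About as many passes would come by chance over 45 sets. Replicate 4 had the most Stat5b in the R307W, GATA2 and wild-type groups as well, at 86.3, 89.3 and 81.4 CPM.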

How the results depend on the processing

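No difference of the 9 genes that was called changed sign under any alternative. Of 90 results (9 genes, 10 comparisons), 88 kept their side of the threshold with DESeq2 size factors, 81 with no filter, 85 with only the 8 libraries compared, 86 with the DESeq2 Wald test, 78 with limma on either TPM scale and 80 without the fourth libraries. With no filter the median over all genes moved by -0.125 in the enhancer-null control against wild-type cells, and by -0.153, -0.204 and -0.172 with R307W, T354M and GATA2 against wild-type cells.

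The replicate block kept 80 of 90 results with all 20 libraries and 48 of 54 with the 16 enhancer-null libraries, and every other result became called. Where numbers did not pair the libraries, blocked fits with all 20 libraries called Stat5b in the enhancer-null control against wild-type cells (adjusted p = 0.00649), Stat5a (0.0289) and Stat5b (0.0166) with R307W against the control, and, against wild-type cells, Stat2 with T354M (0.0445) and with GATA2 (0.0425), Stat4 with R307W (0.0219) and Ifngr1 with GATA2 (0.00997).

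With a fold of at least 2 required, 3 of the 9 genes were called in the enhancer-null control against wild-type cells, and 0 in every other comparison. Among the 9, the number called in T354M against GATA2 was 2 with the replicate block over 20 and over 16 libraries and 0 with limma on either scale. In R307W against T354M it was 2 with the block over 16 libraries and with the DESeq2 Wald test, and 0 with only the 8 libraries, with limma on either scale and without the fourth libraries. The cause was not tested.

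Over the 20 fits without 1 library, the number called ran from 6 to 9 in the enhancer-null control against wild-type cells. Against that control it ran from 4 to 5 with R307W, 4 to 6 with T354M and 3 to 7 with GATA2. Between vectors it was 0 in each fit for R307W against GATA2, 1 to 2 for T354M against GATA2 and 0 to 1 for R307W against T354M. Against wild-type cells it ran from 3 to 6 with R307W, 4 to 6 with T354M and 3 to 6 with GATA2. With 4 libraries a group, Stat4, the shallowest of the 9 in the enhancer-null control, rested on 326 to 424 expected counts a library there.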
